A study of Mus musculus with 4 samples.

Results

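Transcripts of 10 genes that mark blood endothelium, the cell layer lining blood vessels, were followed in RNA sequencing libraries of bulge cells from mouse skin. The genes Cdh5, Pecam1, Kdr, Flt1, Tek, Tie1, Emcn, Cldn5, Vwf and Egfl7 were taken by name as known endothelial markers, by a rule that uses no measured value though earlier results of these data were known when it was written, and they are 10 of 55536 genes in the count table. All 10 had at least 1 count in 1 library. The bulge is the part of the hair follicle that houses its stem cells.

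There were 2 libraries from knockout mice and 2 from control mice, all on a C57BL/6 background. Knockout mice were Cdh5CreERT2; Alk1 flox/flox: a tamoxifen-activated Cre recombinase under the Cdh5 promoter removes the floxed part of Alk1 (gene symbol Acvrl1) in endothelium. Control mice were littermates without Cre, and the labels do not say whether they carried floxed Alk1. Mice of both groups had 100 µg of tamoxifen per g of body weight injected into the peritoneum on postnatal day 17, and skin was sampled on postnatal day 20. Since Cre follows the Cdh5 promoter, Alk1 is left in place in cells that do not use it. The labels give neither the gate by which bulge cells were sorted nor the exons deleted.

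ALK1 is a type I receptor of the BMP family that sits mainly on endothelial cells, where it binds BMP9 and BMP10 together with a type II receptor and the co-receptor endoglin, and signals through SMAD proteins to the Id genes. Small vessels lie close to the bulge, and endothelial RNA can enter a preparation of follicle cells with cells that escape the sort or as free RNA. The 10 genes cover junctions, growth factor receptors and secreted products of that cell type.

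Library depth was 22261317 and 21237843 counts in knockouts 1 and 2, and 16326906 and 29130974 counts in controls 1 and 2. Bulge markers fitted the label: Krt15, a bulge keratin, ranked first of 24037 genes with a count, at 58072 and 57519 TPM in knockouts and 53765 and 61788 TPM in controls (TPM, counts corrected for exon length and scaled to a common total). Control 1 was highest in genes of the interfollicular epidermis and the sebaceous gland, though not in every list of other skin cells. The summed level over 7 genes of interfollicular differentiation was 8992 and 4107 TPM in knockouts, against 16112 TPM in control 1 and 5068 TPM in control 2. The p-values below measure the spread between these 4 libraries, whose titles number the mice but say no more of their origin.

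The sequence just before the transcription start is shown for Tek, which had the highest mean level of the 10 genes, and for Flt1 and Cldn5, which had the lowest. Each run is 250 bases from RefSeq on GRCm38.p6, read 5′ to 3′ on the gene's strand, and capitals mark GGAA on either strand (TTCC on the strand shown), the core of motifs bound by ETS factors, a family that many endothelial promoters use. The windows lie at chr4:94739039-94739288 on the plus strand for Tek, chr5:147726012-147726261 on the minus strand for Flt1 and chr16:18776597-18776846 on the plus strand for Cldn5.
Tek: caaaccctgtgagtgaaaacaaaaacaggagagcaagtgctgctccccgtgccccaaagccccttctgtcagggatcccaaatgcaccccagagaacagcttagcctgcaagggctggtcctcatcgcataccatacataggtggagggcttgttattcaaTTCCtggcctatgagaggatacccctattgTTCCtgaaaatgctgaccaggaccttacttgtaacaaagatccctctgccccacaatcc
Flt1: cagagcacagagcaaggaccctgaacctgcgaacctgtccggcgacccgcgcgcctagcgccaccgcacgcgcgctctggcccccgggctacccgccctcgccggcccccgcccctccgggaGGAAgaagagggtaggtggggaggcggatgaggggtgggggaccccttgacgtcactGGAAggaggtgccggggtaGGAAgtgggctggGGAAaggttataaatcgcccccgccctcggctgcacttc
Cldn5: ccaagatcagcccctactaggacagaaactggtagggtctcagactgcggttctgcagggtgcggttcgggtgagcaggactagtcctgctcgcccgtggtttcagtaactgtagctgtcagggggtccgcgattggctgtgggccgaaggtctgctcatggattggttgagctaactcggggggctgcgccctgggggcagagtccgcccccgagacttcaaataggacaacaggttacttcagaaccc
The Tek window held 2 matches, the Flt1 window 4 and the Cldn5 window 0. Such matches are common: 93.4% of 32851 promoters of this length held at least 1, 76.8% held at least 2 and 33.4% held at least 4, with a median of 3. GATA, the core bound by GATA factors, also searched on both strands and unable to overlap GGAA, matched 1 time in the Tek window and 0 times in the others, and 53.6% of all promoters held it. RefSeq promoters were found for 7 of the 10 genes.

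The bulge libraries held few endothelial transcripts. Summed over the 10 genes, there were 159 and 398 counts in knockouts 1 and 2, and 380 and 245 counts in controls 1 and 2. As CPM (counts scaled to a common library total) that is 7.14 (95% exact binomial interval 6.08 to 8.34) and 18.7 (16.9 to 20.7) in knockouts, and 23.3 (21 to 25.7) and 8.41 (7.39 to 9.53) in controls. Knockout 2 and control 1 were high and knockout 1 and control 2 low, so that each group held 1 library of either kind. All intervals cover counting error only, since reads without molecular identifiers are not independent molecules.

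Corrected for exon length, the sum was 3.85 and 9.93 TPM in knockouts, and 9.39 and 4.41 TPM in controls. It averaged 6.89 ± 4.3 TPM in knockouts and 6.90 ± 3.5 TPM in controls (SD, n = 2 each), and the difference between the means was far smaller than either spread. No test was made, because the smallest two-sided p that an exact permutation test of 2 libraries against 2 allows is 0.33. The highest library exceeded the lowest 2.58-fold. In the same libraries Krt15 exceeded the sum 15067-fold and 5790-fold in knockouts, and 5728-fold and 13997-fold in controls. In bulk libraries fewer endothelial cells and less RNA per endothelial cell cannot be told apart.

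The makeup of the sum differed between libraries. Tek supplied 43.4% and 55.8% of the 10 genes' counts in knockouts, and 11.8% and 24.9% in controls. Vwf supplied 23.9% and 15.3% in knockouts, and 52.6% and 26.1% in controls. Without Tek, the sum was 1.94 and 3.34 TPM in knockouts, and 7.52 and 3.02 TPM in controls. The high sum of knockout 2 thus rested mainly on Tek, while control 1 was highest over the other 9 genes.

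**Figure D1:**
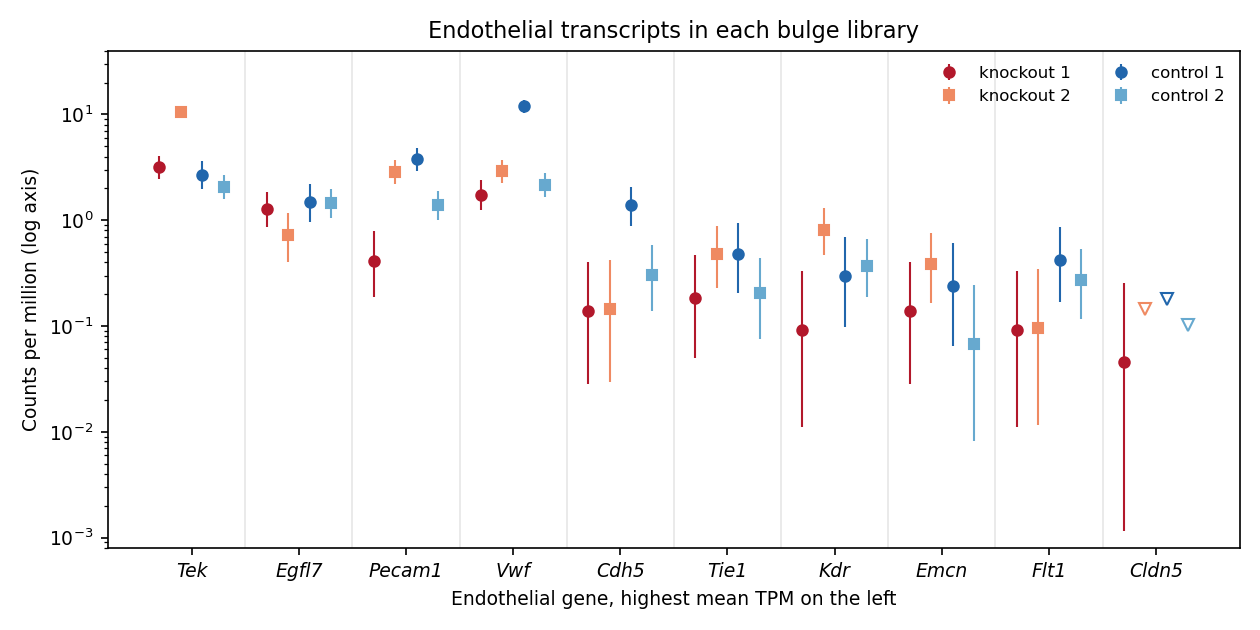
CPM (log axis) of the 10 endothelial genes in knockout libraries 1 and 2 (red and orange) and control libraries 1 and 2 (dark and light blue). Bars are exact 95% Poisson intervals of the counts. Open triangles mark, where a library had 0 counts, the CPM of 3 counts, the limit taken for a count of 0. Knockout 2 is highest for Tek at 10.6, control 1 is highest for Vwf at 12.0 and Cdh5 at 1.38, and most other intervals overlap.

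Among the growth factor receptors, Tek (ENSMUSG00000006386, chr4:94739289-94874976, plus strand), the angiopoietin receptor TIE2, had 69 and 222 counts in knockouts, and 45 and 61 counts in controls. Both knockouts lay above both controls, with knockout 2 alone well above the rest. In CPM, scaled from here on to effective library size, it measured 3.17 and 10.6 in knockouts, and 2.69 and 2.07 in controls. The 95% Poisson intervals of knockout 1 (2.47 to 4.01 CPM) and control 1 (1.96 to 3.60 CPM) overlapped. Its log2 fold change was 1.54 ± 0.58 (SE), and it did not pass (edgeR adjusted p = 0.44). Without knockout 2 the log2 fold change was 0.43.

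Tie1 (ENSMUSG00000033191, chr4:118471191-118490061, minus strand), the co-receptor of TIE2, had 4 and 10 counts in knockouts, and 8 and 6 counts in controls. The groups overlapped, with a log2 fold change of 0.04 ± 0.77 (edgeR adjusted p = 0.98). Kdr (ENSMUSG00000062960, chr5:75932827-75978458, minus strand), the main signalling receptor for VEGF, had 2 and 17 counts in knockouts, and 5 and 11 counts in controls. The knockouts enclosed the controls on either side. Flt1 (ENSMUSG00000029648, chr5:147561604-147726011, minus strand), a VEGF receptor that also acts as a decoy, had 2 and 2 counts in knockouts, and 7 and 8 counts in controls. Both knockouts lay below both controls, and their counts did not exceed 3, the limit taken for a count of 0.

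Among the junction and surface proteins, Cdh5 (ENSMUSG00000031871, chr8:104101625-104144511, plus strand), the VE-cadherin of adherens junctions and the source of the promoter that drives Cre, had 3 and 3 counts in knockouts, and 23 and 9 counts in controls. It measured 0.138 and 0.144 CPM in knockouts, and 1.38 and 0.305 CPM in controls, so both knockouts lay below both controls. The knockout counts did not exceed 3, the limit taken for a count of 0. The 95% intervals of knockout 1 (0.0284 to 0.403 CPM) and knockout 2 (0.0296 to 0.420 CPM) overlapped that of control 2 (0.139 to 0.579 CPM) and not that of control 1 (0.873 to 2.07 CPM). Summed over libraries, the knockout over control ratio of Cdh5 was 0.203 (0.0695 to 0.493), an interval of counting error that holds no spread between mice. Filtering on low counts left Cdh5 out of the test.

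Pecam1 (ENSMUSG00000020717, chr11:106654217-106750628, minus strand), the adhesion protein CD31, had 9 and 60 counts in knockouts, and 63 and 41 counts in controls. Knockout 1 was low and the other 3 libraries were within a narrower range, so the groups overlapped. Its log2 fold change was -0.62 ± 0.88 (edgeR adjusted p = 0.80). Emcn (ENSMUSG00000054690, chr3:137341067-137432185, plus strand), the sialomucin endomucin of capillaries and veins, had 3 and 8 counts in knockouts, and 4 and 2 counts in controls. Cldn5 (ENSMUSG00000041378, chr16:18776847-18778262, plus strand), a claudin of endothelial tight junctions, had 1 and 0 counts in knockouts, and 0 and 0 counts in controls. At these depths a count of 0 allows up to 3 counts, or 0.144 CPM in knockout 2, and 0.180 and 0.102 CPM in controls.

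Among the secreted products, Vwf (ENSMUSG00000001930, chr6:125546774-125686679, plus strand), the von Willebrand factor that binds platelets, had 38 and 61 counts in knockouts, and 200 and 64 counts in controls. Knockouts measured 1.75 and 2.92 CPM, against 12.0 CPM in control 1, which alone was high, and 2.17 CPM in control 2. Knockout over control, the fold change was -1.57 ± 0.78 on the log2 scale (edgeR adjusted p = 0.51), or 0.10 without control 1. Egfl7 (ENSMUSG00000026921, chr2:26580014-26593120, plus strand), a matrix protein secreted by endothelium, had 28 and 15 counts in knockouts, and 25 and 43 counts in controls. On the CPM scale both knockouts (1.29 and 0.718) lay below both controls (1.50 and 1.46), by a margin well inside the counting intervals for knockout 1. Its log2 fold change was -0.55 ± 0.45 (edgeR adjusted p = 0.66). Egfl7 shares 7.4% of its exon length with Gm20532 on the same strand, so reads there cannot be assigned to 1 gene.

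The order of mean TPM over the 4 libraries ran from Tek (2.94 ± 2.4) through Egfl7 (1.07 ± 0.35), Pecam1 (1.06 ± 0.78), Vwf (0.926 ± 1.0) and Cdh5 (0.373 ± 0.47) to Tie1 (0.210 ± 0.11), Kdr (0.133 ± 0.097), Emcn (0.116 ± 0.075), Flt1 (0.0513 ± 0.039) and Cldn5 (0.0231 ± 0.046; SD, n = 4). The mean of Tek rests on knockout 2 (6.59 TPM), and in control 1 both Vwf (2.43 TPM) and Pecam1 (1.98 TPM) stood above Tek (1.87 TPM). Among neighbours in this order, Tek and Egfl7 alone had ranges that did not overlap, with the lowest Tek value at 1.39 TPM and the highest Egfl7 value at 1.36 TPM. Ranked by mean TPM among 24037 genes with a count, Tek stood at place 11459 and Cldn5 at place 22640.

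Of the 10 genes, 5 passed the filter on low counts (Pecam1, Tek, Tie1, Vwf and Egfl7), and 0 of the 5 were called by edgeR's quasi-likelihood test with Benjamini-Hochberg adjustment. In that test 0.00701% of 14259 genes were called at an adjusted p under 0.05, which is 1 gene, the pseudogene Rps26-ps1, named after its value was seen. Tek was the 1 gene of the 5 with an unadjusted p under 0.05 (0.038). DESeq2 gave an adjusted p for 4 of the 10 genes and called 0 of them (0.587% of 13624 genes called), with 2 at an unadjusted p under 0.05. Limma-voom called 0 of 5 (0.00701% of genes called), with 0 at an unadjusted p under 0.05. Of the 5 tested genes, 2 had log2 fold changes above 0 and 3 below, with a median of -0.55, against -0.02 over all tested genes.

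Without the count filter edgeR tested all 10 genes and called Tek (log2 fold change 1.53 ± 0.36, edgeR adjusted p = 0.0028), where 1.79% of 24037 genes were called. Cdh5 gave -2.47 ± 0.85 in that fit and did not pass (edgeR adjusted p = 0.13). The median prior degrees of freedom were infinite in that fit, against a median of 4.17 with the filter. A typical gene's own spread between libraries thus had no weight in it. Without regard to a test, both knockouts lay below both controls in CPM for 3 of the 10 genes (Cdh5, Flt1 and Egfl7), a pattern held by 19.3% of all genes with a count. Both knockouts lay above both controls for 1 of 10 (Tek), against 16.4% of all genes.

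The libraries themselves took up different places. Knockout 2 had the highest CPM of the 4 libraries for 4 of the 10 genes and control 1 for 5, while control 2 had it for 0. Knockout 1 was lowest for 6 of the 10. Among 13364 genes whose total counts lay in the same range, 1 to 397, knockout 2 was highest for 28.8%, control 1 for 28.1% and control 2 for 25%, and knockout 1 was lowest for 19.4%. A gene whose lowest value was tied between libraries counted as lowest for none of them. Such ties among sparse genes lower the 19.4%, and the share among untied genes was not computed.

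In the sum of a wider list of 25 blood endothelial genes knockout 2 and control 1 were again the higher libraries. In TPM the place of knockout 2 rested on 1 gene, Ecscr. The list held 23 genes with a count, while Sox17 and Sox18, transcription factors of endothelium, had 0 in every library. Its sum was 17.2 and 33.5 TPM in knockouts, and 34.6 and 23.2 TPM in controls. Without Ecscr it was 10.3 and 17.7 TPM in knockouts, and 29.4 and 18.0 TPM in controls. On this scale knockout 2 then lay just below control 2. Scaled to library totals instead, the 462 counts of knockout 2 lay slightly above the 603 counts of control 2. Knockout 2 was highest for 8 of the 23 genes and control 1 for 15, and knockout 1 was lowest, without a tie, for 15. EdgeR's test called 0 of 9 tested genes, with 1 at an unadjusted p under 0.05. Of the 9 log2 fold changes 8 were below 0 (median -0.45), against 7489 of all 14259 tested genes. Without a count filter edgeR called 2 of 23 tested genes of this list, where 1.79% of 24037 genes were called. They were Ecscr at 1.26 ± 0.35 (edgeR adjusted p = 0.023) and Ptprb, a phosphatase that acts on TIE2, at -2.26 ± 0.63 (edgeR adjusted p = 0.026). Ptprb, named after its values were seen, had 5 and 9 counts in knockouts, and 50 and 10 counts in controls, with control 1 alone high.

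Ecscr, a surface protein of endothelium, was the 1 gene of the 9 above 0. It had 93 and 198 counts in knockouts, and 47 and 85 counts in controls. Like Tek, it was highest in knockout 2, and its groups did not overlap in CPM. Its log2 fold change reached 1.27 ± 0.43 (edgeR adjusted p = 0.43), and 0.59 without knockout 2. Sox7, an endothelial transcription factor, measured 4.53 and 4.16 TPM in knockouts, and 7.47 and 7.07 TPM in controls (log2 fold change -0.58 ± 0.24, edgeR adjusted p = 0.46). Clec14a, a lectin of vessel walls, gave -0.05 ± 0.37 (edgeR adjusted p = 0.96). Plvap, which forms the diaphragms of fenestrated capillaries, had 12 and 43 counts in knockouts, and 61 and 35 counts in controls, with knockout 1 low as for Pecam1.

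**Figure D2:**
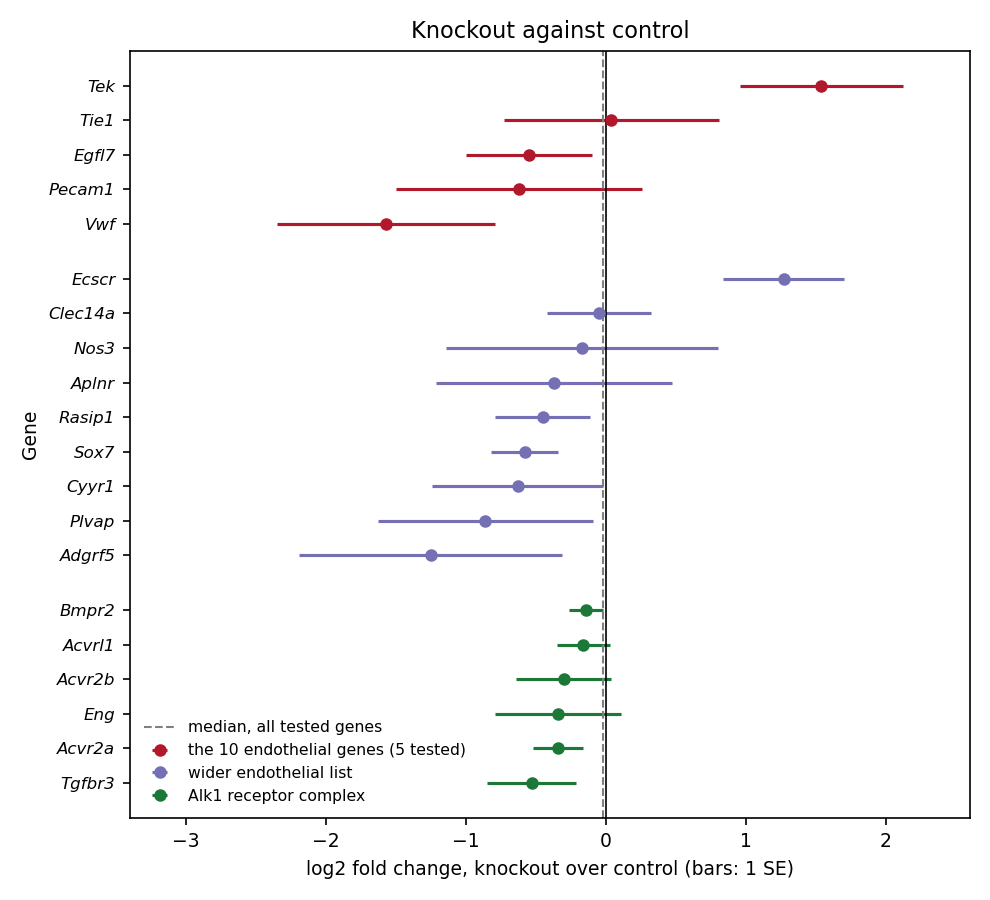
Log2 fold change of knockout over control (horizontal axis, bars 1 SE, n = 2 libraries each) for the 5 tested genes of the 10, the 9 tested genes of the wider endothelial list and the 6 tested genes of the Alk1 receptor complex. Tek at 1.54 and Ecscr at 1.27 lie farthest above 0 and Vwf at -1.57 farthest below, and the dashed line marks the median of all tested genes at -0.02.

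Acvrl1 (ENSMUSG00000000530, chr15:101128522-101145336, plus strand), the gene the Cre was meant to delete in endothelium, was more abundant than the 10 endothelial genes. It had 390 and 483 counts in knockouts, and 361 and 718 counts in controls. Its level was 12.0 and 15.8 TPM in knockouts, and 16.5 and 18.1 TPM in controls, above the summed TPM of all 10 endothelial genes in every library. The ratio of Acvrl1 to that sum was 3.11 and 1.60 in knockouts, and 1.76 and 4.10 in controls, and the groups overlapped. Summed over the wider list of 25 endothelial genes, TPM exceeded Acvrl1 in every library (17.2 and 33.5 in knockouts, 34.6 and 23.2 in controls).

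The level of Acvrl1 moved less between libraries than the 10 endothelial genes did. Its highest TPM exceeded its lowest 1.51-fold, against 2.58-fold for the sum and 11.4-fold for Cdh5. The low end for Cdh5 was 3 counts, where counting error widens the range. In CPM the range was 1.36-fold for Acvrl1, against 2.08-fold for Egfl7 and 2.6-fold for Tie1, the narrowest of the 10 genes. Sox7 of the wider list came closer, at 1.61-fold. Control 2, with the second lowest endothelial sum, had the highest Acvrl1. Knockout 1 was lowest in both. Over Cdh5, Acvrl1 stood 128-fold and 159-fold higher in knockouts, and 15.5-fold and 78.6-fold higher in controls. Over Pecam1, it stood 63.3-fold and 11.8-fold higher in knockouts, and 8.37-fold and 25.6-fold higher in controls, and over Tie1, 112-fold and 55.7-fold in knockouts, and 52-fold and 138-fold in controls. Ratios to genes with few counts carry their counting error. No library of isolated endothelium was used here, so the Acvrl1 level that accompanies a given Cdh5 level in endothelium was not measured, and the share of Acvrl1 transcripts from endothelial cells was not tested.

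**Figure D3:**
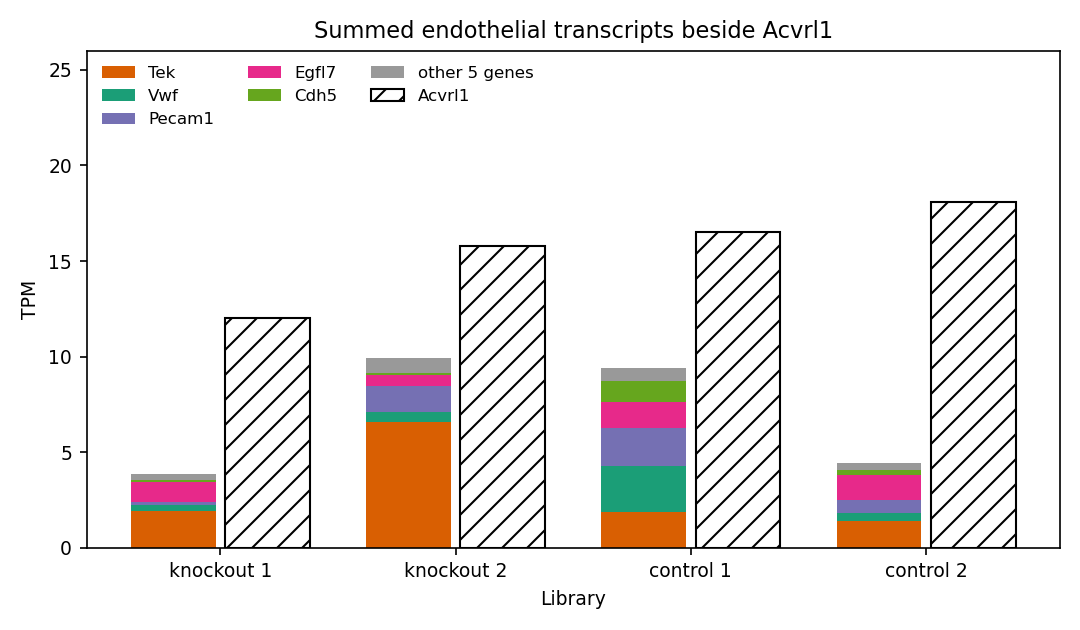
Summed TPM of the 10 endothelial genes (stacked bars, by gene) and TPM of Acvrl1 (hatched bars) in each library. The stacks reach 3.85 and 9.93 in knockouts and 9.39 and 4.41 in controls, and Acvrl1 stands above its stack in all 4 libraries, at 12.0 to 18.1.

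The comparison of groups gave a log2 fold change of -0.16 ± 0.19 for Acvrl1 (edgeR adjusted p = 0.76). In CPM the groups overlapped, with 17.9 and 23.1 in knockouts, and 21.6 and 24.3 in controls. In TPM both knockouts lay below both controls, on a scale that sets all genes of knockouts lower relative to controls by 0.16 on the log2 scale than CPM does. The counts cover the whole gene and cannot show whether the floxed exons are missing, so they do not check the labels. Acvrl1 shares 3.0% of its exon length with the antisense gene Gm16031.

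The partners of ALK1 were also measured. Eng, endoglin, the co-receptor of ALK1 on endothelium, had 34 and 63 counts in knockouts, and 59 and 68 counts in controls, with knockout 1 low as for Pecam1 and Plvap. Its log2 fold change was -0.34 ± 0.45 (edgeR adjusted p = 0.79), and Acvrl1 exceeded it 10.9-fold and 7.28-fold in knockouts, and 5.81-fold and 10-fold in controls, in TPM. Of the type II receptors, Bmpr2 and Acvr2a exceeded Acvrl1 in TPM in all 4 libraries, and Acvr2b was below it. Bmpr2 gave -0.14 ± 0.12 (edgeR adjusted p = 0.67), Acvr2a -0.34 ± 0.18 (0.52) and Acvr2b -0.30 ± 0.34 (0.76). Tgfbr3, the co-receptor betaglycan, gave -0.53 ± 0.32 (edgeR adjusted p = 0.56). Gdf2 and Bmp10, which encode the ligands BMP9 and BMP10, had 0 counts in all libraries. EdgeR called 0 of these 6 tested genes, with 0 at an unadjusted p under 0.05. All 6 log2 fold changes were below 0 (median -0.32), as were 7489 of all 14259 tested genes.

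Of 15 genes known to respond to ALK1 signalling in endothelium, 12 were tested and edgeR called 0, with 0 at an unadjusted p under 0.05. Among these, 8 log2 fold changes were above 0 and 4 below, with a median of 0.17. Over all 14259 tested genes, 6770 were above 0 and 7489 below. The list was not split into genes raised and genes lowered by ALK1, so these counts give no direction of signalling. The Id genes, transcriptional inhibitors that many BMP receptors induce, were abundant: Id1 measured 588 and 362 TPM in knockouts, and 498 and 511 TPM in controls. Id1 gave a log2 fold change of 0.08 ± 0.24 (edgeR adjusted p = 0.92), Id2 0.26 ± 0.15 (0.54), Id3 0.05 ± 0.17 (0.93), and Smad7, an inhibitor of the pathway, -0.40 ± 0.18 (0.47). The list also held genes at the level of the endothelial genes or below. Tmem100, a membrane protein induced by ALK1, measured 1.48 and 2.85 TPM in knockouts, and 1.88 and 1.40 TPM in controls. Gja4, a gap junction protein of arteries, measured 1.32 and 0.914 TPM in knockouts, and 1.74 and 1.28 TPM in controls. Apln, a peptide of sprouting vessels, measured 0.707 and 1.47 TPM in knockouts, and 0.931 and 0.751 TPM in controls, and the groups overlapped for all 3 genes. Gja5, another arterial gap junction protein, had 2 and 1 counts in knockouts, and 0 and 0 counts in controls, and Esm1 had 0 in all libraries. Hey2 went the other way from Gja5, with 0 and 0 counts in knockouts, and 2 and 3 counts in controls. No count of Gja5 or Hey2 exceeded 3, the limit taken for a count of 0. Tmem100, Gja4, Apln, Gja5, Esm1 and Hey2 were named after their values were seen.

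Several lists for other cell types were carried by a few abundant genes. The 10 pericyte and smooth muscle genes summed to 127 and 140 TPM in knockouts, and 182 and 177 TPM in controls, and 9 of the 10 had a count. Most of that was Cspg4 (115 and 129 TPM in knockouts, and 158 and 167 TPM in controls), followed by Notch3 (10.5 and 8.01 TPM in knockouts, and 20.2 and 6.95 TPM in controls). The other 8 genes summed to 1.42 and 3.11 TPM in knockouts, and 3.43 and 3.38 TPM in controls. Kcnj8, a potassium channel of pericytes, had 0 in every library, and Pdgfrb, the PDGF receptor of mural cells, had 2 and 16 counts in knockouts, and 3 and 5 counts in controls (both named after their values were seen). The lymphatic list summed to 1.94 and 3.42 TPM in knockouts, and 1.67 and 1.76 TPM in controls, with 5 of 6 genes counted and Mmrn1 at 0. Without Pdpn the lymphatic sum was 0.209 and 0.339 TPM in knockouts, and 0.275 and 0.455 TPM in controls. Fibroblast genes, all 8 counted, summed to 185 and 172 TPM in knockouts, and 210 and 238 TPM in controls. Nearly all of that was Fbln1, Col1a1 and Col1a2. The other 5 fibroblast genes summed to 1.00 and 3.51 TPM in knockouts, and 1.24 and 1.71 TPM in controls, highest in knockout 2 as Tek was. Among them Dcn, the proteoglycan decorin, had 20 and 68 counts in knockouts, and 13 and 36 counts in controls, and Col3a1, a collagen chain named after its values were seen, had 12 and 62 counts in knockouts, and 17 and 28 counts in controls. The 5 Schwann cell genes, all counted, summed to 19.9 and 28.0 CPM of the library total in knockouts, and 30.0 and 22.4 CPM in controls, with the same high and low libraries as the endothelial sum. In TPM the Schwann sum was 8.77 and 13.2 in knockouts, and 13.6 and 12.7 in controls. Except in control 2 (6.30 TPM), most of it came from Mbp, which encodes a myelin protein. Without Mbp it was 2.96 and 5.03 TPM in knockouts, and 3.47 and 6.36 TPM in controls. Control 2 was then highest, so the match with the endothelial sum did not hold without Mbp. Melanocyte genes, all 6 counted, summed to 41.8 and 44.2 TPM in knockouts, and 61.8 and 72.4 TPM in controls. Blood and immune genes, 15 of 16 counted with Pf4 at 0, summed to 119 and 97.7 TPM in knockouts, and 106 and 89.7 TPM in controls.

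The interfollicular and sebaceous lists were highest in control 1, as were the endothelial genes without Tek. The 7 sebaceous genes summed to 449 and 385 TPM in knockouts, and 729 and 357 TPM in controls, and knockout 2, high in the endothelial sum, was low in both lists. The 12 bulge keratinocyte genes summed to 116806 and 107921 TPM in knockouts, and 108521 and 121879 TPM in controls. The part of these cell types in the endothelial values was not tested.

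**Figure D4:**
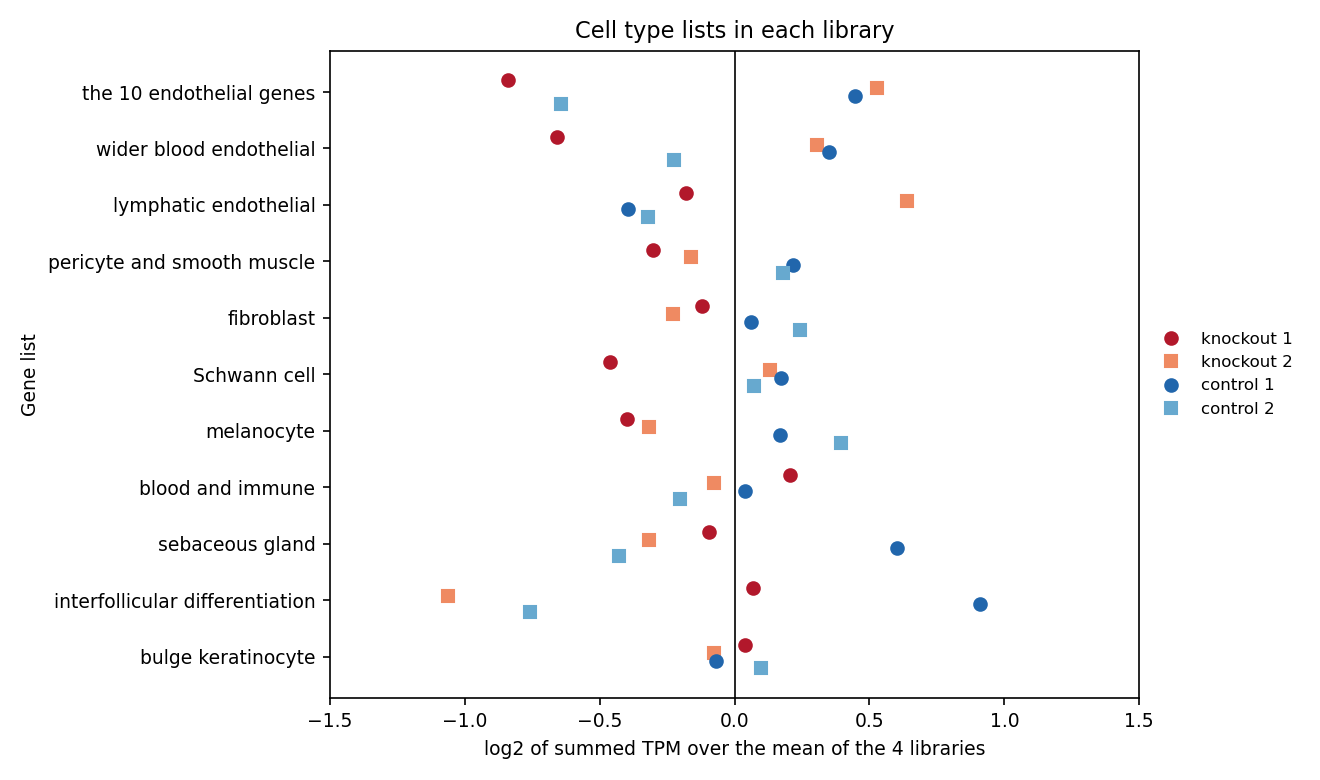
Summed TPM of 11 gene lists in each library, as log2 over the mean of the 4 libraries (knockouts red and orange, controls dark and light blue). Knockout 2 and control 1 lie to the right and knockout 1 and control 2 to the left for both blood endothelial lists, and the Schwann list differs in having knockout 1 alone on the left.

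The genes whose CPM most resembled the mean pattern of the 5 tested endothelial genes over the 4 libraries were Ank3, Lmbr1l, Etv3, Zmym2 and Zcchc8, with Pearson r from 0.9987 to 0.9998 over 4 libraries. These were the closest of 11845 candidates, of which 37 had r over 0.99. Ank3, for example, measured 34.4 and 47.4 CPM in knockouts, and 51.2 and 37.9 CPM in controls. With 4 points, so many candidates and library depth in common, these values describe the pattern only.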

How the data were processed

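Libraries were directional and polyA-selected from TRIzol RNA, per the labels' protocols. Raw counts of 55536 genes were deposited by the authors, per the labels. The submitters' processing notes name Trim Galore 0.6.0, cutadapt, FastQC, STAR 2.7.0e, DESeq2 1.26.0 and GRCm38 (mm10). No source used here names the counting tool or its strand setting, so overlapping genes are uncertain. All 55536 identifiers matched GENCODE M21, which gave symbols, coordinates and exon lengths.

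The 10 genes were picked by name and the lists written with earlier results of these data known. Counts were analysed in R 4.3.3. After edgeR's filterByExpr (14259 genes) and TMM normalization, edgeR 4.0.16's quasi-likelihood test compared the groups without covariates, with Benjamini-Hochberg adjustment over all tested genes and a threshold of 0.05. TPM used the union of exons. Named genes were the 10 endothelial genes, the Alk1 receptor list, up to 4 of highest mean TPM per other list and the 5 most alike genes (protein-coding, tested, in no list, mean of at least 1 CPM). Genes named beyond this rule are marked as chosen on their values. The test was checked on simulated counts. Alternatives were upper-quartile or RLE scaling, no count filter, at least 50 counts in 2 libraries, DESeq2 1.42.0, limma-voom (limma 3.58.1), a replicate block, a length and GC trend, and each library left out in turn. The lymphatic gene Ccl21a carried more than 1 gene identifier and was not used.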

Additional observations from a re-analysis of the deposited data

How the results depend on the processing

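The count of called genes, 1 in the edgeR test, was 430 without a count filter (163 higher and 267 lower in knockouts), 80 with DESeq2 (22 higher, 58 lower), 106 with the replicate block (25 higher, 81 lower), 2 after a length and GC trend was taken out, and 1 to 65 with a library left out (65 without knockout 1, 4 without knockout 2, 2 without control 1). Of the 10 genes, 1 (Tek, 1.53) was called without a filter and 0 under every other alternative, among them the replicate block, under which Tek had an edgeR adjusted p of 0.32. Replicate numbers are shared but not stated to pair mice: over 14259 genes same-numbered libraries deviated together with r = 0.122. Tek kept its direction, from 0.43 to 2.17, with a library left out, and its adjusted p was 0.0028 to 0.98 over all alternatives. Over the refits of 23 named genes, 255 of 272 had the same direction and side of the threshold, 15 changed direction and 2 passed the threshold anew (Tek and Ecscr, at 1.26, without a filter); Ptprb, called at -2.26 without a filter, was not tested with it. Changes of direction came from leaving out a library, except Bmpr2 (0.10 after the length and GC trend was taken out). With a library left out, log2 fold changes ranged from -2.59 to 0.24 for Pecam1 (0.19 without knockout 1, 0.24 without control 1), -0.78 to 0.69 for Tie1 (-0.78 without knockout 2, -0.51 without control 2), -2.33 to 0.10 for Vwf, -0.36 to 0.01 for Acvrl1, -0.88 to 0.06 for Eng, -0.69 to 0.02 for Acvr2b, -0.59 to 0.33 for Clec14a (0.06 without control 1), -2.08 to 0.13 for Plvap, -0.34 to 0.40 for Id1, -0.19 to 0.25 for Id3 and -0.23 to 3.57 for Angptl4; the cause was not tested. The log2 difference of the summed level (-0.06) was -0.91 without Tek and -0.22 in CPM. That of Acvrl1 over the sum (-0.27) was 0.58 without Tek and 0.05 in CPM. The spread between libraries on this scale (SD 0.97 and 0.86) was taken for the TPM sums with Tek only. Without Tek the sum averaged 2.64 ± 0.99 TPM in knockouts and 5.27 ± 3.2 TPM in controls (SD, n = 2 each). This difference was not tested. Chosen after seeing the data, list sums without their leading genes gave -0.77 for the wider endothelial list without Ecscr (-0.24 with it), 0.36 for fibroblast genes without Fbln1, Col1a1 and Col1a2 (-0.33 with them), -0.41 for lymphatic genes without Pdpn (0.59 with it), and -0.70 for pericyte genes without Cspg4 and Notch3 (-0.43 with them). A group left with 1 library was assumed to vary like the other. Most of the 10 genes had under 100 counts in each library, which sets the width of their counting intervals.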

Other observations

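Secreted factors that act on vessels, not all of them ligands of the receptors above, were measured in the same bulge libraries. EdgeR called 0 of 4 tested genes of 8 listed, with 0 at an unadjusted p under 0.05. Angptl4, a secreted inhibitor of lipoprotein lipase that also acts on vessels, measured 7.03 and 100 TPM in knockouts, and 11.5 and 7.29 TPM in controls. Knockout 2 alone was high, the library that was also highest for Tek and Ecscr. Its log2 fold change came to 2.67 ± 1.26 (edgeR adjusted p = 0.51), and -0.23 without knockout 2. Vegfd, a VEGF family ligand, had 328 and 418 counts in knockouts, and 233 and 278 counts in controls, with no overlap in CPM (log2 fold change 0.59 ± 0.26, edgeR adjusted p = 0.47). Angpt1 and Angpt4, ligands of TIE2, had at most 4 counts in any library. Angpt2, a further TIE2 ligand kept in the list of ALK1 response genes, had 13 and 5 counts in knockouts, and 5 and 17 counts in controls. Angpt1, Angpt2 and Angpt4 were named after their values were seen.

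Red cell transcripts did not follow the endothelial genes. Hbb-bs, a beta globin, had 91 and 65 counts in knockouts, and 21 and 56 counts in controls, and Hba-a1, an alpha globin, had 139 and 88 counts in knockouts, and 52 and 93 counts in controls. Both globins were highest in knockout 1, the library with the fewest endothelial counts, and lowest in CPM in a control. Their log2 fold changes were 1.19 ± 0.38 (edgeR adjusted p = 0.43) and 0.76 ± 0.32 (edgeR adjusted p = 0.47). Globin genes have near-identical copies between which counting could split reads.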
